A study of Mus musculus with 6 samples.

Results

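The cysteine-rich secretory protein (CRISP) family was followed in RNA of immunoprecipitates from mouse testis. These were made with an antibody to the protein PNMA4, from lysates with and without that protein. The 7 members of the family, Crisp1, Crisp2, Crisp3, Crisp4, Crispld1, Crispld2 and Glipr1, were taken by gene symbol from a table of 57010 gene IDs, and each symbol matched 1 ID. The family was chosen by a measured value of these samples, the difference of Crisp1 between libraries lacking PNMA4 and wild-type libraries. PNMA4, encoded by Moap1, is a protein derived from a retrotransposon capsid, and dense particles containing it were immunoprecipitated with an antibody to PNMA4. The 3 libraries lacking PNMA4 came from 2 Pnma4 knockout lysates (replicates 1 and 2) and 1 lysate of the double knockout of Pnma1 and Pnma4 (replicate 3), and the other 3 libraries were wild type. Every lysate was a pool of 8 testes from mice aged 3 months, so the spread between libraries is that between pools. The wild-type mice were C57BL/6J, and the strain background of the knockouts is not given in the sources used here. All 6 lysates went through the same sucrose cushion (25% over 70%), the same iodixanol gradient (fractions 8 and 9) and the same antibody, so the libraries lacking PNMA4, which the submitters call control, hold what the procedure recovers without its target.

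CRISP proteins belong to the CAP superfamily and carry a CAP domain followed by a cysteine-rich region that can act on ion channels. In the male mouse, CRISP1 and CRISP4 are secreted by the epithelium of the epididymis and coat sperm during maturation, whereas CRISP2 is made by germ cells in the testis and is built into the acrosome and the sperm tail. Mouse Crisp3 is known chiefly from salivary gland. CRISPLD1 and CRISPLD2 are larger secreted relatives with LCCL domains, and GLIPR1 is a related CAP protein first described in glioma. In the testis, Crisp2 is a usual transcript and Crisp1 is not.

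The 3 genes named Crisp1, Crisp2 and Crisp3 lie in 1 cluster on chromosome 17 (GRCm38.p6), and the bases in front of their start sites are printed because they show how close these neighbours are. Crisp1 spans 40293758 to 40319207, Crisp3 40221777 to 40242288 and Crisp2 40764734 to 40794146. Each sequence holds the 250 bases before the RefSeq start, on the minus strand. Capitals mark the bases at which Crisp1 and Crisp3 differ, and in Crisp2 the letters TATAAA on either strand.
Crisp1 (chr17:40319208-40319457): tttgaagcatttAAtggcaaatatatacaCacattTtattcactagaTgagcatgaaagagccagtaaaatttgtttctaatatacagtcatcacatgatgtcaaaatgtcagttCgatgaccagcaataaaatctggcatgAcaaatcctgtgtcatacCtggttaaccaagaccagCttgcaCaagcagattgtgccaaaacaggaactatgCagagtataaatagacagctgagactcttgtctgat
Crisp3 (chr17:40242289-40242538): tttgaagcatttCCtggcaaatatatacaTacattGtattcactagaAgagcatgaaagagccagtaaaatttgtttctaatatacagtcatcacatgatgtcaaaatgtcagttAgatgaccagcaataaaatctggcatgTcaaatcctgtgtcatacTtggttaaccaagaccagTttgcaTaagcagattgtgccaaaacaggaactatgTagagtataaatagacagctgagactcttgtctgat
Crisp2 (chr17:40794147-40794396): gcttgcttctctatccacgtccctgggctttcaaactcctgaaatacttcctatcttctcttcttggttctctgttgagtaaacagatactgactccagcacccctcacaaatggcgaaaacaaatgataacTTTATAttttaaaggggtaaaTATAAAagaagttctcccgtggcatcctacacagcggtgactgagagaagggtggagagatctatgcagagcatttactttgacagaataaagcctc

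Crisp1 and Crisp3 were identical at 239 of these 250 bases, or 95.6%, whereas the best alignment of Crisp1 with Crisp2 left 112 identical bases (44.8%). The same kind of alignment of Crisp1 with Crisp4, on chromosome 1, left nearly as many, 111 (44.4%). Both Crisp1 and Crisp3 hold TATAAA beginning 31 bases before the start. The letters TATAAA occur, on either strand, in the same window of 12.4% of 32851 RefSeq promoters. A half-site of steroid receptors (TGTTCT, in 16.1% of promoters) and one of the cyclic AMP response element (TGACG, in 17.8%) were sought on either strand. Neither had a match in the 3 sequences shown, which says only that those letters are not in this window. Crisp4, whose sequence is not shown, had 1 match to TGTTCT, 217 bases before its start, and none to TGACG. The motifs are descriptions of sequence and were not tested against the counts. Sequences were found for 5 of the 7 members.

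The libraries carried the labelled deletions and RNA of testis. Moap1 had 0 counts in each library lacking PNMA4 and 7 to 27 in wild type, and Pnma1 had 0 in the double knockout library alone. Total counts ran from 3138657 to 6367930, and 1 count was worth 0.127 to 0.332 CPM (counts per 1000000 of the scaled library size). The 10 germ cell markers were all tested, and their summed level was 1720 to 2086 CPM in the libraries lacking PNMA4 and 1502 to 1686 CPM in wild type. The ribosomal RNA-like gene Rn18s-rs5 took 57.5% of all counts in the double knockout, 36.1% and 33.1% in the Pnma4 knockouts and 27.3% to 33.8% in wild type. The double knockout library also stood apart in somatic markers, with 466 CPM summed over 10 Leydig cell markers against 192 to 260 CPM in the other 5 libraries. Over all 13413 genes tested with edgeR, 5 genes were higher without PNMA4 and 3 were lower. Leaving out the double knockout gave 14 higher and 4 lower genes, leaving out Pnma4 knockout replicate 2 gave 6 and 5, and leaving out wild-type replicate 2 gave 5 and 6.

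Of the 7 members, 2 passed the filter on low counts, Crisp1 and Crisp2, and the remaining 5 had at most 15 counts in any library. Crisp1 passed only through the libraries lacking PNMA4, since no wild-type library held more than 5 of its counts. Among those 2 tested, Crisp1 was called higher in the libraries lacking PNMA4, where 0.0373% of all genes tested were called higher, and none was called lower, where 0.0224% were. The same contrast drew attention to Crisp1 and hence to the family, so nothing is read from this count, its values are a description with no p-value, and so are those of the other members.

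Crisp1 was scarce in all libraries and more abundant in those lacking PNMA4. It had 20, 21 and 24 counts in replicates 1 to 3 lacking PNMA4, against 2, 5 and 1 counts in wild-type replicates 1 to 3. Scaled for library size, these were 6.30, 2.98 and 7.98 CPM without PNMA4, against 0.522, 0.635 and 0.152 CPM in wild type. The groups did not overlap, as for 3.43% of all genes tested with every library lacking PNMA4 above every wild-type one, and the lowest value without PNMA4, in Pnma4 knockout replicate 2, was still above the highest wild-type value. Crisp1 averaged 5.75 ± 2.54 CPM without PNMA4 and 0.436 ± 0.252 CPM in wild type (SD, n = 3 each), an 11.9-fold difference in the fit (log2 fold change 3.57, standard error 0.56). The wild-type mean rests on 8 reads in all and that of the group lacking PNMA4 on 65. The libraries hold RNA of immunoprecipitates from lysates of whole testis, not RNA of the testis itself. A different recovery of a transcript, more cells carrying it and more of it per cell cannot be told apart, and input RNA was not analysed here.

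Crisp2, the germ cell member, was plentiful in both groups and did not separate them. It had 905, 2996 and 1242 counts without PNMA4, against 912, 1756 and 2845 in wild type. Its levels were 285, 425 and 413 CPM without PNMA4, against 238, 223 and 434 CPM in wild type. The groups overlapped, with the highest value of all in wild-type replicate 3 and the lowest 2 in wild-type replicates 1 and 2. Crisp2 averaged 374 ± 77.5 CPM without PNMA4 and 298 ± 118 CPM in wild type (SD, n = 3 each). The fit put it at a log2 fold change of 0.33 ± 0.25 (SE). Single libraries moved this value, to 0.69 without wild-type replicate 3 and to 0.15 without wild-type replicate 2.

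**Figure D1:**
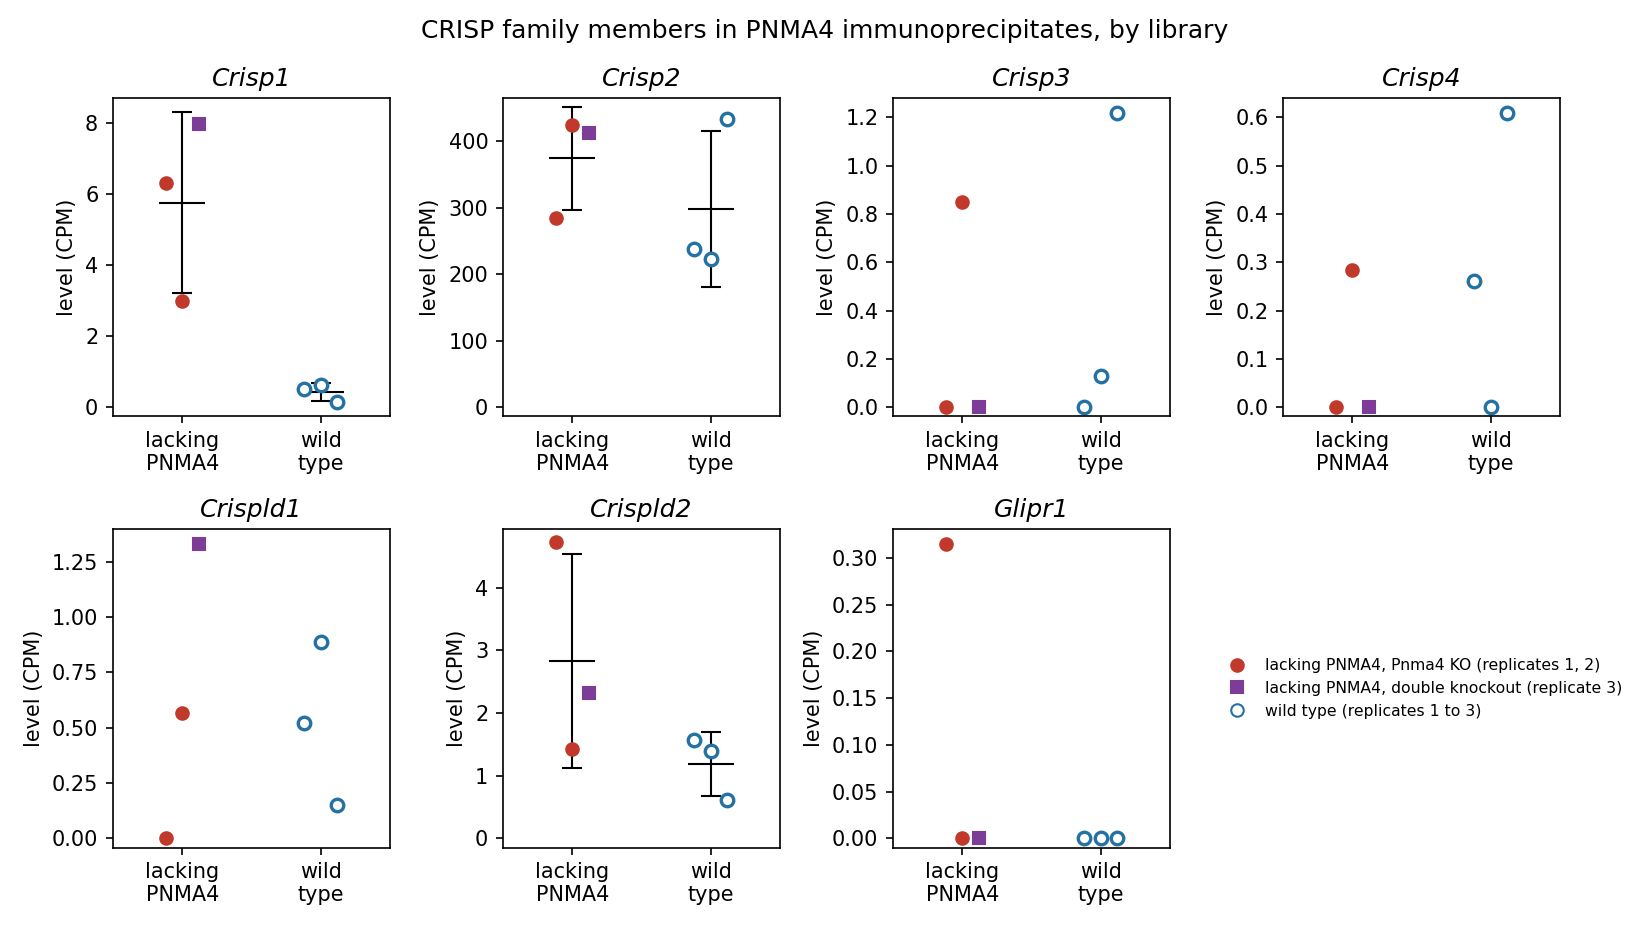
Level of each CRISP family member in CPM (vertical axis, linear, own scale per panel) in the 3 libraries lacking PNMA4 (filled, square for the double knockout) and the 3 wild-type libraries (open). Bars for Crisp1, Crisp2 and Crispld2 are mean ± SD (n = 3), and the panels of the 4 scarcer genes show points only. The groups do not overlap only for Crisp1, and 3.43% of all genes tested have every library lacking PNMA4 above every wild-type one. The family was chosen by this Crisp1 difference, so nothing is read from it.

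Set against Crisp2 inside each library, where library scaling has no part, the share of Crisp1 was higher in the libraries lacking PNMA4. This share is built from the same Crisp1 counts that drew attention to the family, so it describes them and adds no support. Crisp1 made up 2.16%, 0.696% and 1.90% of the counts of both genes in replicates 1 to 3 lacking PNMA4, against 0.219%, 0.284% and 0.0351% in wild-type replicates 1 to 3. The mean share was 1.58% ± 0.781 without PNMA4 and 0.179% ± 0.129 in wild type (SD, n = 3 each), a ratio of 8.84. The 95% Wilson interval of the lowest share without PNMA4, in Pnma4 knockout replicate 2, ran from 0.456% to 1.06%. It overlapped those of wild-type replicates 1 (0.0600% to 0.794%) and 2 (0.121% to 0.663%), and not that of wild-type replicate 3 (0.00620% to 0.199%). The shares are of reads and not of molecules, and transcript lengths were not used, so they compare libraries and not the abundance of the 2 genes.

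**Figure D2:**
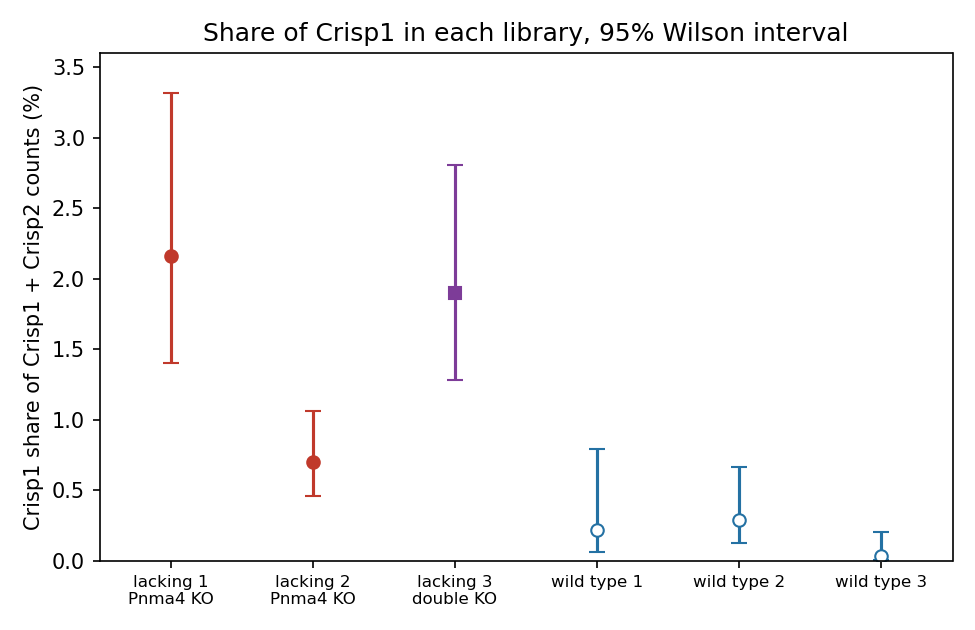
Crisp1 counts as a percentage of Crisp1 plus Crisp2 counts (vertical axis) in each library, with 95% Wilson intervals that cover counting error only. The 3 libraries lacking PNMA4, on the left, lie between 0.696% and 2.16%, above the wild-type libraries, whose highest share is 0.284%. The shares use the same Crisp1 counts that drew attention to the family.

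The remaining 5 members were too scarce to be tested. Crispld2, also known as the late gestation lung gene Lgl1, had 15, 10 and 7 counts without PNMA4, against 6, 11 and 4 in wild type. That is 4.73, 1.42 and 2.33 CPM without PNMA4, against 1.57, 1.40 and 0.610 CPM in wild type, and the groups overlapped. Its mean was 2.82 ± 1.71 CPM without PNMA4 and 1.19 ± 0.510 CPM in wild type (SD, n = 3 each). Crispld1 had 0, 4 and 4 counts without PNMA4, against 2, 7 and 1 in wild type, with no separation of the groups.

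Crisp3, whose upstream sequence is nearly that of Crisp1, did not share the pattern of Crisp1 over the libraries. It had 0, 6 and 0 counts without PNMA4, against 0, 1 and 8 in wild type. Its reads thus fell almost wholly in Pnma4 knockout replicate 2 and wild-type replicate 3, and it was at 0 in the replicate 1 and double knockout libraries, where Crisp1 was highest. Crisp4, the other epididymal member, had 0, 2 and 0 counts without PNMA4, against 1, 0 and 4 in wild type, highest in those same 2 libraries. Glipr1 had 1 count in replicate 1 lacking PNMA4 and 0 in the other 5 libraries, which allows up to 0.164 CPM over the combined wild-type libraries. Crisp1 and Crisp3 are close paralogs, and how reads that match several genes were counted is not given in the sources used here, so reads of their shared stretches are uncertain as to their source.

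A further contrast set the double knockout library against the Pnma4 knockout libraries. The choice of members did not use this contrast, though it did use the values of Crisp1 in these libraries. Crisp1 stood at 7.98 CPM in the double knockout, against 6.30 and 2.98 CPM in the Pnma4 knockouts (log2 fold change 0.88 ± 0.56 SE, edgeR adjusted p = 0.952). This value was 1.41 without Pnma4 knockout replicate 1, 0.31 without replicate 2 and 0.13 without scaling factors. Crisp2 stood at 413 CPM in the double knockout, against 285 and 425 CPM in the Pnma4 knockouts (log2 fold change 0.22 ± 0.38 SE, edgeR adjusted p = 0.996). Its direction turned without scaling factors (−0.55) and without Pnma4 knockout replicate 1 (−0.043). Neither member was called, where 0.0746% of all genes tested were called in either direction. The double knockout is 1 library, and its own spread is taken from the other groups. Without wild-type replicate 3 the counts over all genes, 5 higher and 5 lower, became 22 and 13. They were 13 and 9 without wild-type replicate 2, and 9 in each direction without Pnma4 knockout replicate 1. Neither member was called in these settings.

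Crisp1 is known from the epididymis, and the other genes of that organ differed among themselves. Of 10 markers taken as defining for epididymis, 4 were at 0 in all 6 libraries, namely Gpx5, a secreted glutathione peroxidase, the lipocalin gene Lcn5, Ovch2 and the defensin gene Defb41. A count of 0 over the 6 libraries allows up to 0.0952 CPM. The 10 markers summed to 2.52 to 4.32 CPM without PNMA4 and 1.30 to 1.90 CPM in wild type, nearly all of it from Rnase10 and Adam7.

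Adam7, which encodes a membrane protein of the epididymal epithelium that passes to sperm, had groups that did not overlap, as 3.43% of all genes tested did with the libraries lacking PNMA4 above and 3.25% with them below. It had 4, 10 and 8 counts without PNMA4, against 1, 2 and 2 in wild type, or 1.78 ± 0.766 CPM and 0.273 ± 0.0276 CPM (SD, n = 3 each). It did not pass the filter on low counts and was not tested, so it is not among the genes behind those shares. Rnase10, a ribonuclease-like gene, stood at 1.15 ± 0.444 CPM without PNMA4 and 1.32 ± 0.249 CPM in wild type, with overlapping groups. Spag11b had 1 count in 1 library lacking PNMA4 and Teddm1a 2 counts in 1 wild-type library.

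**Figure D3:**
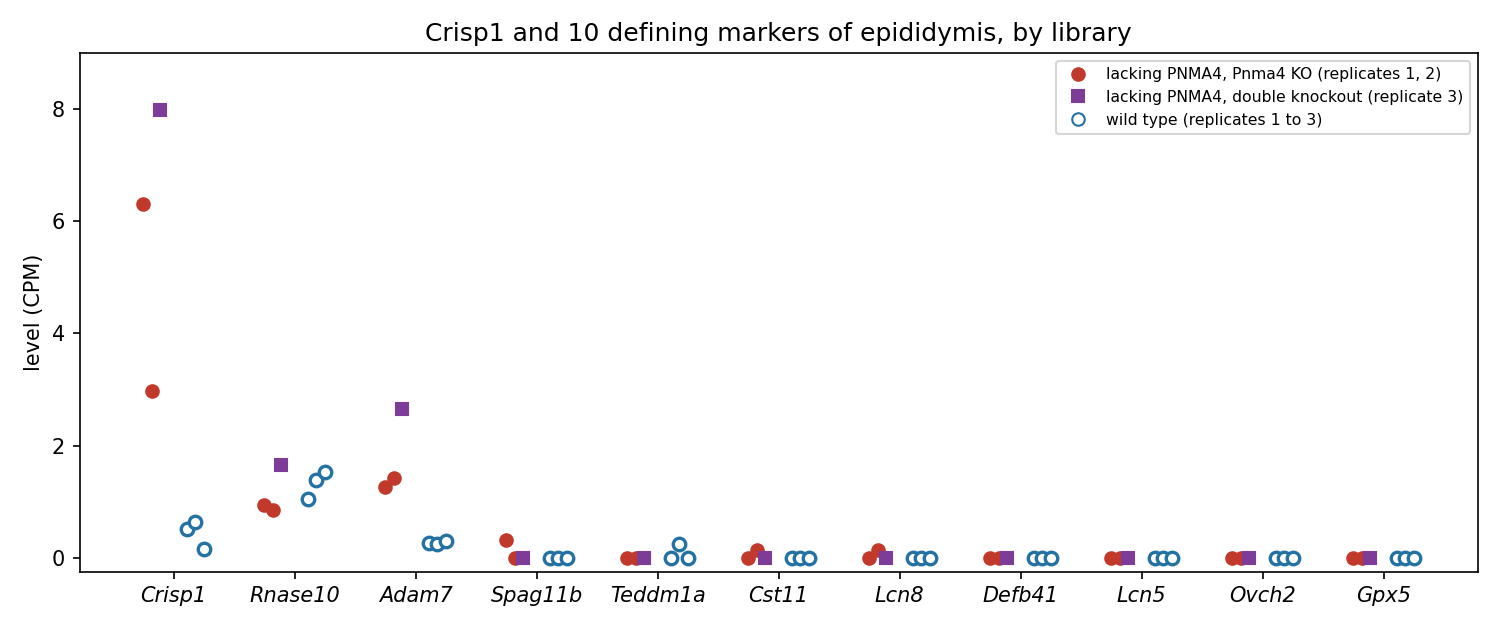
Level in CPM (vertical axis) of Crisp1 and of 10 defining markers of epididymis in each library, with libraries lacking PNMA4 filled (square for the double knockout) and wild-type libraries open. Crisp1 and Adam7 lie higher in every library lacking PNMA4 than in any wild-type library, Rnase10 overlaps, and Gpx5, Ovch2, Lcn5 and Defb41 are at 0 throughout. Crisp1 drew attention to the family by this difference, and 3.43% of all genes tested lie in this order.

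The longer list of 39 epididymal secretory genes, which holds those 10 as well, had 16 members at 0 in every library and 3 that were tested. None was called, beside 0.0596% of all genes tested, and their median log2 fold change was 0.71, beside −0.012 over all genes tested. The cystatin gene Cst8, which testis also expresses, stood at 14.7 ± 4.02 CPM without PNMA4 and 8.91 ± 2.01 CPM in wild type. Cst12, a cystatin gene also held by the Sertoli cell list, stood at 4.12 ± 2.21 and 1.81 ± 0.489 CPM in the same order, and the glycerol channel gene Aqp9 at 51.4 ± 3.87 and 42.2 ± 3.21 CPM (SD, n = 3 each). Teddm2, not tested, went the other way, at 1.45 ± 0.202 CPM without PNMA4 and 2.10 ± 0.371 CPM in wild type. The list summed to 71.8 to 83.4 CPM without PNMA4 and 57.0 to 61.1 CPM in wild type, most of it from Aqp9 and Cst8. With 1 library left out, 3 to 5 members were tested and the median was lowest, 0.22, without replicate 1 lacking PNMA4, against 0.32 without the double knockout and 0.26 without wild-type replicate 1. Of 8 seminal vesicle genes 6 were found in the table, with at most 5 summed counts in a library, led by Svs5 with 0 to 3 counts and Svs4 with 0 or 1. The part of epididymal tissue in the Crisp1 result was not tested.

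Somatic cell markers of the testis were most abundant in 1 library, the double knockout. The 10 Leydig cell markers summed to 192 to 466 CPM without PNMA4 and 204 to 231 CPM in wild type, with a median log2 fold change of 0.61, and 0.065 without the double knockout library. The 11 tested of 13 Sertoli cell markers had a median of 0.37, and −0.010 without that library, with sums of 240 to 536 CPM without PNMA4 and 240 to 331 CPM in wild type. No marker of either list was called, where 0.0596% of all genes tested were called in either direction. Cyp17a1, an enzyme of androgen synthesis, stood at 71.3 ± 49.8 CPM without PNMA4 and 38.6 ± 0.832 CPM in wild type, Star, a cholesterol carrier, at 42.6 ± 4.17 and 42.7 ± 4.31 CPM, and the Sertoli cell gene Clu at 130 ± 58.5 and 99.0 ± 31.9 CPM (SD, n = 3 each). The protease gene Ctsl, also on the Sertoli cell list, stood at 58.8 ± 35.9 CPM without PNMA4 and 34.9 ± 2.76 CPM in wild type. Without the double knockout library Crisp1 stood at a log2 fold change of 3.25 ± 0.61 (SE). The part of somatic cell content in the Crisp1 result was not tested.

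The other marker lists had no called gene, beside 0.0596% of all genes tested. Among 10 stromal and vessel markers 8 were tested, with a median log2 fold change of 0.25 that was −0.064 without the double knockout library, led in level by Myh11 (19.6 ± 9.94 CPM without PNMA4 and 16.1 ± 4.92 CPM in wild type) and Vwf (18.9 ± 5.13 and 16.1 ± 3.76 CPM). Among 8 macrophage markers 3 were tested, with a median of 0.33 that was −0.052 without replicate 1 lacking PNMA4, led by Csf1r (3.89 ± 1.82 and 2.99 ± 0.614 CPM) and Lyz2 (3.41 ± 1.38 and 2.37 ± 1.11 CPM). Of 5 blood markers, 1 was tested, Alas2, with 5.16 ± 1.11 CPM without PNMA4 and 5.16 ± 0.328 CPM in wild type. The globin gene Hbb-bs stood at 1.91 ± 1.88 and 0.905 ± 0.859 CPM (SD, n = 3 each for all of these genes).

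Of 8 other CAP superfamily genes, 4 passed the filter and none was called, beside 0.0596% of all genes tested. The 4 had a median log2 fold change of 0.19 and a range from −0.19 to 0.28, and the median was −0.12 without scaling factors, where that of all genes was −0.31. With 1 library left out it ran from −0.022 without wild-type replicate 2 to 0.54 without wild-type replicate 3, and it was 0.029 without the double knockout. Glipr1l2, a testis relative of Glipr1, stood at 16.5 ± 2.57 CPM without PNMA4 and 13.5 ± 0.871 CPM in wild type (log2 fold change 0.28 ± 0.24 SE). Glipr1l1, whose product is found on the head of mouse sperm, stood at 5.04, 6.81 and 7.31 CPM without PNMA4, against 3.65, 3.56 and 10.2 CPM in wild type. Its highest value was in wild-type replicate 3, as for Crisp2 and Crisp3. Glipr1l3 stood at 3.04 ± 1.01 CPM without PNMA4 and 2.29 ± 2.01 CPM in wild type, and Pi16, a peptidase inhibitor-like gene of fibroblasts, at 1.31 ± 1.33 and 1.39 ± 1.03 CPM (SD, n = 3 each).

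Sperm-egg binding and fusion genes, and genes of channels and partners linked to CRISP proteins, were followed as 2 lists. Of all genes tested 0.0596% were called, and nothing is read from a count of 0. Of 17 sperm-egg binding and fusion genes 16 were tested, 9 with positive and 7 with negative log2 fold changes, none called, with a median of 0.081. Zpbp, of the acrosomal matrix, stood at 71.0 ± 13.1 CPM without PNMA4 and 55.8 ± 16.3 CPM in wild type, and Acrbp, which binds proacrosin, at 58.9 ± 5.62 and 66.7 ± 17.5 CPM. All 20 genes of channels and partners linked to CRISP proteins were tested, among them the CatSper calcium channel that CRISP1 can regulate, with a median of −0.069, 11 negative and none called. Ggnbp2, the most abundant gene of this list, stood at 252 ± 30.0 CPM without PNMA4 and 236 ± 55.9 CPM in wild type. Catsperg1, an auxiliary CatSper subunit, stood at 195 ± 33.8 and 225 ± 21.3 CPM in the same order (SD, n = 3 each for both genes). The 10 germ cell markers had a median of 0.15, and 0.46 without wild-type replicate 3. Ldhc, the lactate dehydrogenase of germ cells, stood at 647 ± 72.5 CPM without PNMA4 and 499 ± 26.3 CPM in wild type, and the protamine gene Prm2 at 339 ± 53.1 and 352 ± 71.4 CPM.

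**Figure D4:**
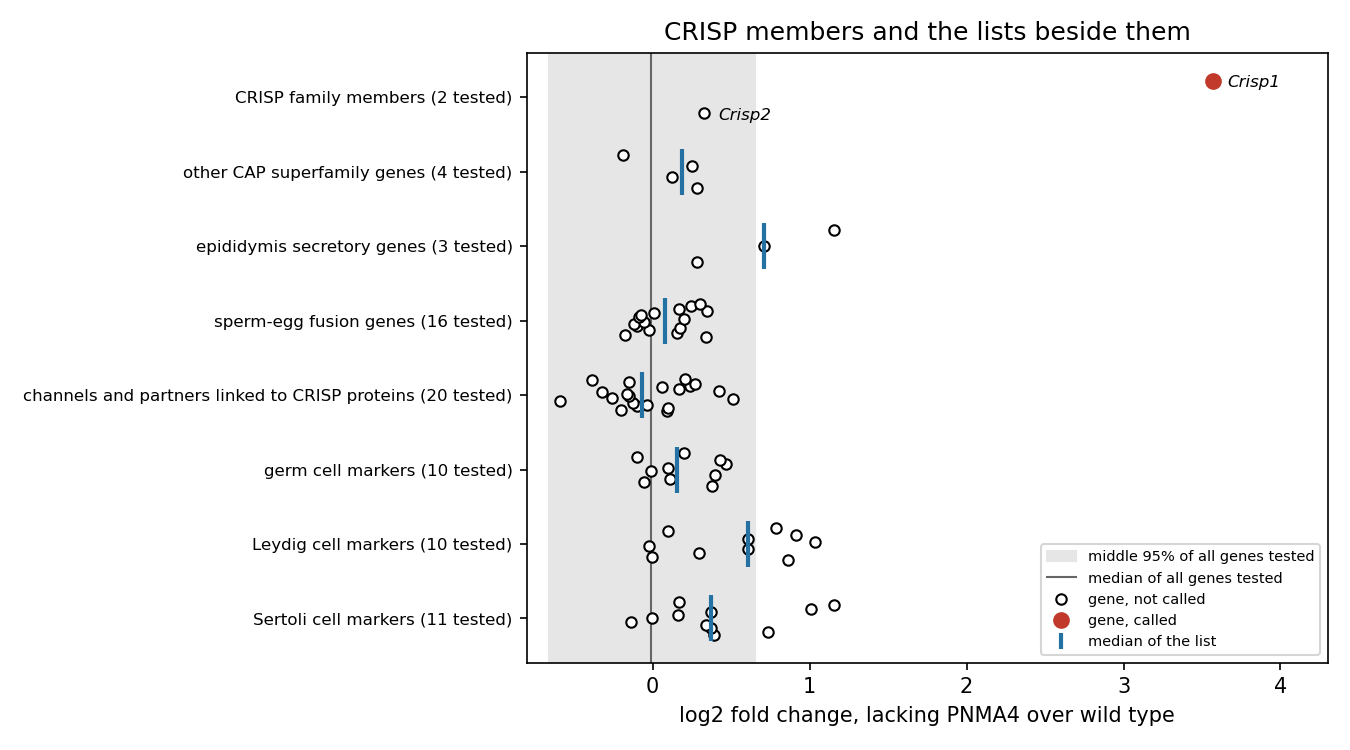
Log2 fold change, lacking PNMA4 over wild type (horizontal axis), of each tested gene of the CRISP family and of 7 other lists. The grey band holds the middle 95% of all genes tested, and blue bars are list medians. Crisp1, at 3.57, is the 1 called gene, while Crisp2, at 0.33, lies inside the band. The family was chosen by the Crisp1 difference in this same contrast, so nothing is read from its call or its place outside the band.

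Most neighbours of Crisp1 on chromosome 17 had few or no reads. Of 19 genes that RefSeq places within 500 kb of it, 10 had no count in any library, and of the 4 tested none was called, as for nearly all genes (0.0596% called). The nearest neighbour with more than a few reads was Pgk2, the phosphoglycerate kinase of spermatids, 85.1 kb away, at 154 ± 23.2 CPM without PNMA4 and 117 ± 36.2 CPM in wild type (log2 fold change 0.40 ± 0.23 SE). Crisp3, 51.5 kb away, was described above, and Gm29748, Gm44501 and Esp4 had 1 to 3 counts in all. AY036118, a noncoding RNA 395 kb away, stood at 271 ± 170 CPM without PNMA4 and 201 ± 54.7 CPM in wild type (SD, n = 3 each). Its span overlaps the end of the ribosomal RNA-like gene Rn18s-rs5, and both were highest in the double knockout library. The 4 tested genes were Pgk2, AY036118, Crisp2 and Rn18s-rs5, the last of these named after its values were seen.

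The genes whose profile over the 6 libraries came nearest to that of Crisp1 were 3 pseudogenes, as RefSeq classes them, and 2 protein-coding genes. Likeness was the root mean square difference of centred log2 CPM over the 6 libraries, and its median over all genes tested was 1.54 from Crisp1. A gene flat over the 6 libraries would lie at 1.51, so that median mostly reflects the group difference of Crisp1 itself. The nearest were Gm8116 (0.46), Gm2420 (0.73), the phospholipase gene Plaat3 (0.82), Gm12666 (0.92) and Polg2 (0.94), which encodes a subunit of the mitochondrial DNA polymerase. Gm8116 had 14, 25 and 21 counts without PNMA4, against 1, 1 and 2 in wild type. Of these 5 genes, the 3 with Gm names were themselves called higher without PNMA4 in the contrast that drew attention to Crisp1.

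The profile of Crisp2, a gene with many more reads, was nearest to those of genes that were also low in replicate 1 lacking PNMA4 and in wild-type replicates 1 and 2. The nearest were the Wnt receptor gene Fzd3 (0.072), Stxbp6 (0.073), the ubiquitin-conjugating enzyme gene Ube2e3 (0.086), 1700066M21Rik (0.093) and the noncoding RNA Oip5os1 (0.095), where the median over all genes tested was 0.49. A flat gene would lie at 0.40 from Crisp2. Fzd3 had 48, 158 and 73 counts without PNMA4, against 46, 100 and 160 in wild type. Oip5os1 stood at 82.5, 123 and 113 CPM without PNMA4, against 61.6, 69.7 and 134 CPM in wild type. These likenesses are descriptions over 6 libraries, and none of the 5 genes was called.

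**Figure D5:**
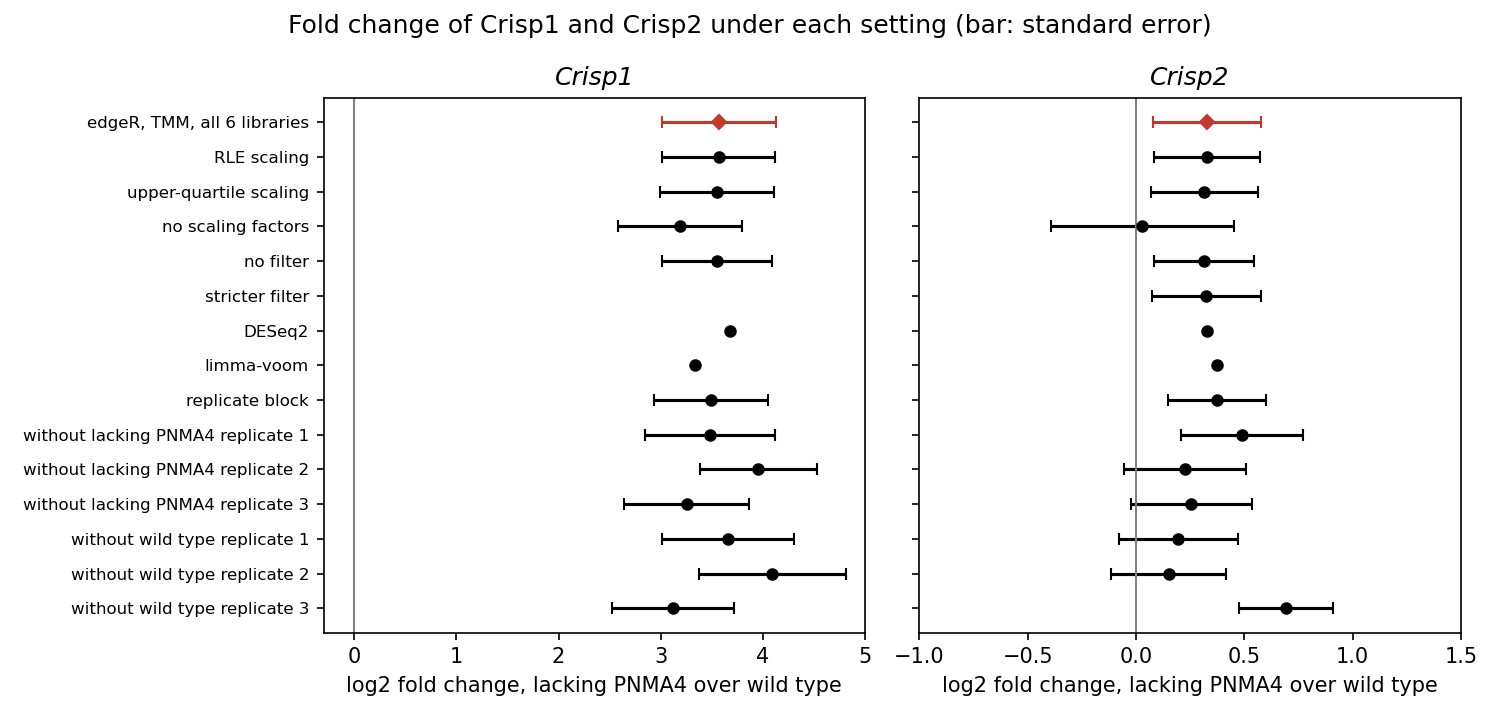
Log2 fold change, lacking PNMA4 over wild type (horizontal axes), of Crisp1 and Crisp2 with all 6 libraries (red) and under each other setting (black), with standard errors where the tool gave one. Crisp1 stays between 3.12 and 4.09 in the 13 other settings that tested it, and Crisp2 between 0.030 and 0.69.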

How the data were processed

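RNA of PNMA4 immunoprecipitates was sequenced from 3 lysates lacking PNMA4 and 3 wild-type lysates. The authors deposited raw counts per Ensembl gene ID, used here as deposited. The build GRCm38 and the tools STAR 2.5.2b, bcl2fastq 2.20, DESeq2 and featureCounts are named, with no role, strand or multiple-match setting, per the submitters' processing notes. Of 57010 IDs, 1606 have no symbol.

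The test was edgeR's quasi-likelihood test (edgeR 4.0.16, R 4.3.3) after filterByExpr (minimum count 10, minimum total 15), which left 13413 genes, with TMM scaling and Benjamini-Hochberg adjustment over all of them at 0.05. Fold changes are lacking PNMA4 over wild type, the double knockout being replicate 3 of the first group, as labelled. Standard errors were taken as the size of the log2 fold change divided by the root of its F value. Likeness used a prior count of 2. A floor is 3 counts over the libraries named. Intervals and floors cover counting error only, since reads carry no molecular identifiers, and p-values measure the spread between these lysates, called biological replicates per the labels' design text. The fitting step was checked on simulated counts. No pair of libraries agreed within sampling noise (chi-square per gene at least 8.60). Alternatives were DESeq2 1.42.0, limma-voom (limma 3.58.1), 3 other scalings, 2 other filters, a replicate block and leaving out each library.

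The members and the 13 gene lists were chosen with earlier results of these data known. Named genes are the members, Moap1 and Pnma1, the called or most abundant genes of each list (2, or 4 for the CAP and epididymis lists), the 6 nearest neighbours of Crisp1 with counts and the 5 nearest profiles. Outside this rule, Rn18s-rs5 and the 4 defining epididymis markers at 0 were named after their values were seen. Sequences and gene positions are from RefSeq (GRCm38.p6).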

Additional observations from a re-analysis of the deposited data

How the results depend on the processing

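Crisp1 had a log2 fold change of 3.12 to 4.09 with 1 library left out, and Crisp2 one of 0.15 to 0.69. With the replicate number as a block, Crisp1 stood at 3.49 and Crisp2 at 0.37, with 4 genes higher and 3 lower over all genes. Same-numbered libraries did not deviate together (correlations of 0.037, −0.064 and 0.079), and replicate 1 lacking PNMA4 went best with wild-type replicate 2 (0.19). The stricter filter (minimum count 30) removed Crisp1. Over all genes, 20 were higher and 11 lower without the filter, and 1 was higher with the stricter one. Leaving out 1 library gave 5 to 14 higher and 2 to 6 lower. For the double knockout over the Pnma4 knockouts, the counts were 2 higher and 196 lower without scaling factors, 16 and 15 without the filter, 9 higher in DESeq2, 9 lower in limma-voom, and 4 to 22 higher and 5 to 13 lower with 1 library left out. DESeq2 gave Crisp1 no adjusted p there. Crisp2 turned to −0.55 without scaling factors (edgeR adjusted p = 0.380, from 0.380 to 1.00 over its alternatives) and ran from −0.043 to 0.51 with 1 library left out. Without scaling factors the median of all genes was −0.31, and list medians were −0.23 for sperm-egg fusion genes, −0.37 for channels and partners, −0.16 for germ cell markers and −0.033 for Sertoli cell markers. With 1 library left out, list medians ran from 0.22 to 0.62 for epididymal secretory genes, 0.025 to 0.46 for germ cell, 0.065 to 0.83 for Leydig cell, −0.010 to 0.60 for Sertoli cell and −0.052 to 0.60 for macrophage markers. The cause of these shifts was not tested. Depth limits the level of Crisp1 in wild type, at 1 to 5 counts in a library, and of the 5 untested members, at 0 to 15.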
